A study of Mus musculus with 8 samples.

Results

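The vacuolar proton ATPase (V-ATPase) is the rotary pump that acidifies lysosomes, endosomes and the Golgi. A list of 10 of its genes was examined in regulatory T cells with and without Raptor: Atp6v0b, Atp6v0c and Atp6v0d1 of the membrane sector V0, the accessory subunit genes Atp6ap1 and Atp6ap2, and Atp6v1a, Atp6v1b2, Atp6v1c1, Atp6v1d and Atp6v1h of the cytosolic sector V1. They were found by gene symbol among 17097 genes named on the array. Of the 10, 8 had a probe set assigned to a single gene, with 15 such probe sets in all. Expression of Atp6v0c, the main proteolipid of the proton-carrying ring, and of Atp6v1c1, a subunit of the peripheral stalks, was not analysed here. All 8 were above the filter for dim signal on every array (the 40th percentile of each array's probe sets, 4.69 to 4.81 on the log2 scale), so none entered through a single genotype.

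Gene expression was measured on 8 single-channel arrays, 4 from wild-type mice (WT) and 4 from CD4(cre)Raptor(fl/fl) mice (RaptorKO), all of the C57Bl/6J background per the labels. The cells were CD4+CD25+ cells sorted from spleen and peripheral lymph nodes and used without treatment. Ages, pooling of animals and whether WT mice carried Cre or floxed alleles are not given in the sources used here. Cd4-driven Cre is active in developing T cells, so the deletion is not limited to regulatory T cells, and CD25 also marks activated conventional T cells.

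V1 hydrolyses ATP in the cytosol and turns a central shaft, and V0 uses that rotation to carry protons across the membrane. On lysosomes the pump also takes part in amino acid sensing, together with the Ragulator complex and the Rag GTPases that recruit the kinase complex mTORC1. Raptor, encoded by Rptor, is the scaffold protein that defines mTORC1. Many V-ATPase and lysosome genes are known targets of the transcription factors TFEB and TFE3, which mTORC1 holds in the cytosol by phosphorylation and which bind DNA elements built around the letters CACGTG, called CLEAR elements.

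The samples carried the markers of their labelled cell type. Foxp3, the factor that defines regulatory T cells, lay between 10.79 and 11.04 on the log2 scale on all 8 arrays. None of 10 regulatory T cell markers was called between genotypes, against 1.96% of all genes (limma, adjusted p under 0.05). At an unadjusted p under 0.05 there were 4 of the 10, against 13.0% of all genes. Changes were positive for 4 of them and negative for 6. Cd4, a listed marker, spanned 10.96 to 11.07 for WT and 10.66 to 10.93 for RaptorKO. Its RaptorKO arrays thus lay lower without overlap, which held for 5.09% of all genes. Signal of the brighter of the Rptor probe sets was 6.86 ± 0.12 across WT arrays and 6.64 ± 0.22 across RaptorKO arrays (SD, n = 4 each), a difference of -0.23 that did not pass (limma, adjusted p = 0.491). The dimmer one gave 5.98 ± 0.11 and 5.56 ± 0.15, without overlap. Where either lies relative to the deleted part is not known here, so neither settles the genotype labels. Replicates 1 and 2 of both genotypes had high Xist, the transcript of the inactive X chromosome (10.88 to 11.18), and replicates 3 and 4 low Xist (5.04 to 5.62), while the Y-linked Eif2s3y ran the other way, so both genotypes held 2 arrays of each pattern.

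Atp6ap2 was the only one of the 8 tested members that passed the test between genotypes. It rose by 0.47 on the log2 scale, or 1.38-fold, in RaptorKO. Atp6v0b had a higher mean in RaptorKO and Atp6v1d a lower one, each without overlap between the groups, but neither passed the test. That made 1 of 8 tested members called higher and 0 called lower, against 0.824% of 11413 genes called higher, 1.14% called lower and 1.96% called in either direction (limma, Benjamini-Hochberg adjusted p under 0.05). At an unadjusted p under 0.05 there were 4 of 8 members, against 13.0% of all genes. Groups did not overlap for 3 of 8 members, against 8.82% of all genes: 2 members were higher in RaptorKO, against 3.73% of genes, and 1 was lower, against 5.09%. The median change of the 8 members was 0.13, with 6 positive and 2 negative, beside a median of -0.0092 over all genes tested. In bulk samples such as these, fewer cells of a type and less RNA per cell cannot be told apart.

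**Figure D1:**
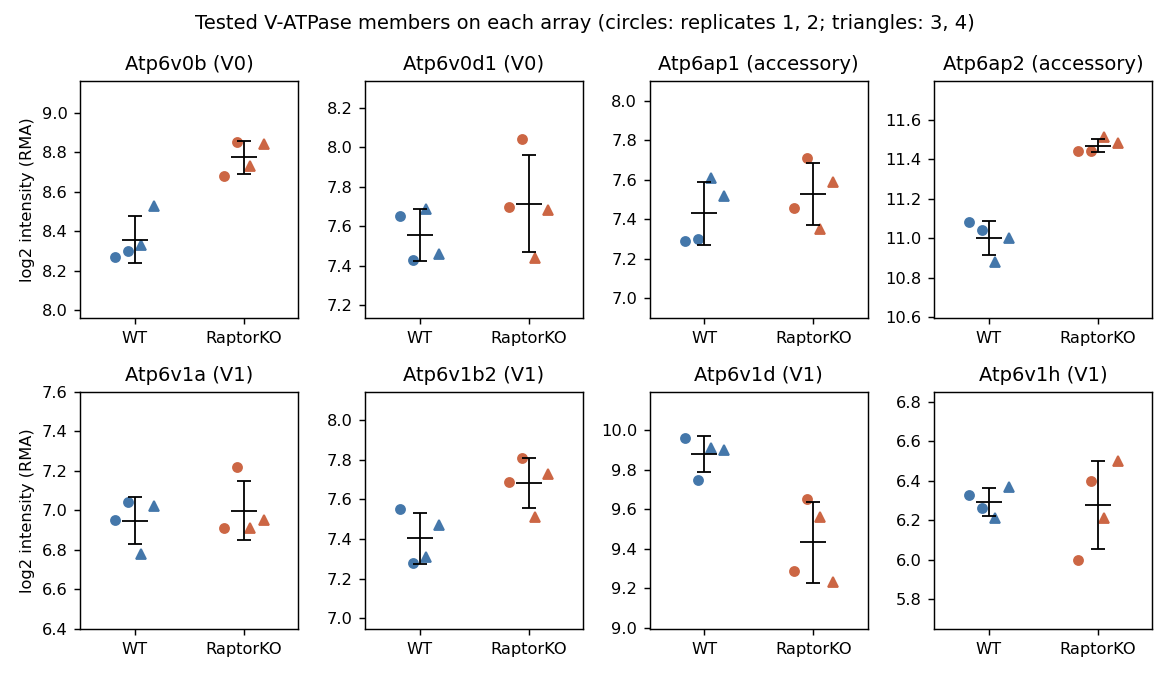
Log2 intensity (RMA) of the 8 tested V-ATPase members on each array, with WT and RaptorKO side by side, circles for replicates 1 and 2, triangles for replicates 3 and 4, and black bars for the mean and SD of 4 arrays. Every panel spans the same height. All 4 RaptorKO points lie above all WT points for Atp6ap2 and Atp6v0b and below them for Atp6v1d, and the groups overlap for the other 5 genes.

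The sequences just before the transcription start are shown for these 3 members, because they are the members whose groups were separate and the background above names a DNA element to look for. Each is the 250 bases upstream of a start in RefSeq's table for GRCm38.p6, 5′ to 3′ on the gene's strand, with CACGTG in capitals.
Atp6ap2, chrX:12587509-12587758, plus strand: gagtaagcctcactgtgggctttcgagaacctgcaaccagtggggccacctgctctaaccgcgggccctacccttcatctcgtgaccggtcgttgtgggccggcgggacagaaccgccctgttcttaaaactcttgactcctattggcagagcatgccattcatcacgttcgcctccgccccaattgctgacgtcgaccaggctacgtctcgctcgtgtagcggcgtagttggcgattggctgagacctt
Atp6v0b, chr4:117887330-117887579, minus strand: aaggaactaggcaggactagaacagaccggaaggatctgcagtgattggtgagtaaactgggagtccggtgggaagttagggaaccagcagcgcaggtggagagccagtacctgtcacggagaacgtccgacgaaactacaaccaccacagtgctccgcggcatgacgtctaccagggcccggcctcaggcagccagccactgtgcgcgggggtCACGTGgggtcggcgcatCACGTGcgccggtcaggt
Atp6v1d, chr12:78861639-78861888, minus strand: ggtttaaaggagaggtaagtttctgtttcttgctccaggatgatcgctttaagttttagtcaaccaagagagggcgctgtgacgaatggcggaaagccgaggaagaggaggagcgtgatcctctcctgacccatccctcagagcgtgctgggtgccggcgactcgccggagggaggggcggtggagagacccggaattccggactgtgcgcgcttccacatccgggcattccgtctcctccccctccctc

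The Atp6v0b window held CACGTG at 2 places, at -36 to -31 and at -18 to -13 relative to the start, and the windows of Atp6ap2 and Atp6v1d held none. Windows of 300 bases, from 250 before to 50 after a start, were in the table for 7 of the 10 members, Atp6v0c among them. CACGTG, which reads the same on both strands, lay in those of 3 genes, Atp6v0b, Atp6v0d1 and Atp6v1a, against 8.09% of 27025 genes in the table. Among other subunits of the pump it lay in 1 of 12 genes (8.33%), close to that share. Among genes of Ragulator, the Rag GTPases and the TFE factors it lay in 5 of 15 (33.3%). All 3 members with CACGTG also held the longer TCACGTG on one strand or the other, which contains the same letters, against 4.29% of genes. This was not particular to the members. The longer form also lay in 1 of the 12 other subunit genes and in 5 of the 15 Ragulator, Rag GTPase and TFE genes. The full CLEAR palindrome, which extends the same letters to 10 bases, lay in 0 of the 7 and in 0.37% of all genes. Members with CACGTG had changes of 0.41, 0.16 and 0.048, and the 3 measured members whose window lacked it had changes of 0.47, 0.098 and -0.45. Whether a match goes with a change was not tested. A match is a description of letters, and no match says only that these letters are not in this window.

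Among the accessory subunits, Atp6ap2 encodes the prorenin receptor, whose membrane-bound fragment is part of V0 and which is needed to assemble the pump. In WT 1 to WT 4 its brightest probe set read 11.08, 11.04, 10.88 and 11.00 on the log2 scale, and in RaptorKO 1 to RaptorKO 4 it read 11.44, 11.44, 11.51 and 11.48. Every RaptorKO array lay above every WT array, with a gap of 0.36 between the nearest arrays. The change was 0.47 (SE 0.092, 95% interval 0.27 to 0.67, limma adjusted p = 0.0237), with means of 11.00 ± 0.09 for WT and 11.47 ± 0.03 for RaptorKO (SD over 4 arrays). Leaving out single arrays kept the size between 0.43 and 0.49 but ended the call for 6 of the 8. With WT 1, WT 3 or WT 4 left out, the limma adjusted p became 0.0589, 0.0935 and 0.0783, and with RaptorKO 1, RaptorKO 3 or RaptorKO 4 left out, it became 0.0568, 0.0604 and 0.0586. In these 8 fits 0.865% to 2.22% of all genes were called.

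The other 2 Atp6ap2 probe sets also had higher means in RaptorKO. The second brightest read 10.19, 10.30, 10.11 and 10.20 in WT and 10.63, 10.63, 10.70 and 10.72 in RaptorKO, and its change of 0.47 was called when every probe set was tested (limma, adjusted p = 0.0297), where 1.74% of 18582 probe sets were called. The dimmest read 7.30, 6.55, 6.65 and 7.08 in WT and 7.59, 7.81, 7.48 and 7.51 in RaptorKO, a difference of 0.70 that just missed the threshold in that fit (adjusted p = 0.0578). None of the 3 sets overlapped between genotypes. Names ending in x_at or s_at mark sets with probes that can match other transcripts, which holds for both brighter Atp6ap2 sets and not for the dimmest.

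Atp6ap1 encodes Ac45, the other accessory subunit, which sits inside the proton-carrying ring. It read 7.29, 7.30, 7.61 and 7.52 in WT and 7.46, 7.71, 7.35 and 7.59 in RaptorKO. The groups overlapped over most of their range, and the difference of 0.098 did not pass (SE 0.12, 95% interval -0.16 to 0.35, limma adjusted p = 0.819). In replicates 1 and 2 alone it was 0.29 and in replicates 3 and 4 alone -0.094, a contrast of -0.38 that did not pass either (limma interaction, adjusted p = 0.481). Atp6ap1 and Atp6ap2 are both X-linked, and replicates 3 and 4 differed from replicates 1 and 2 by 0.076 for Atp6ap1 (SE 0.12, limma adjusted p = 0.907) and by -0.032 for Atp6ap2 (SE 0.094, limma adjusted p = 0.96), where 0.158% of all genes were called.

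**Figure D2:**
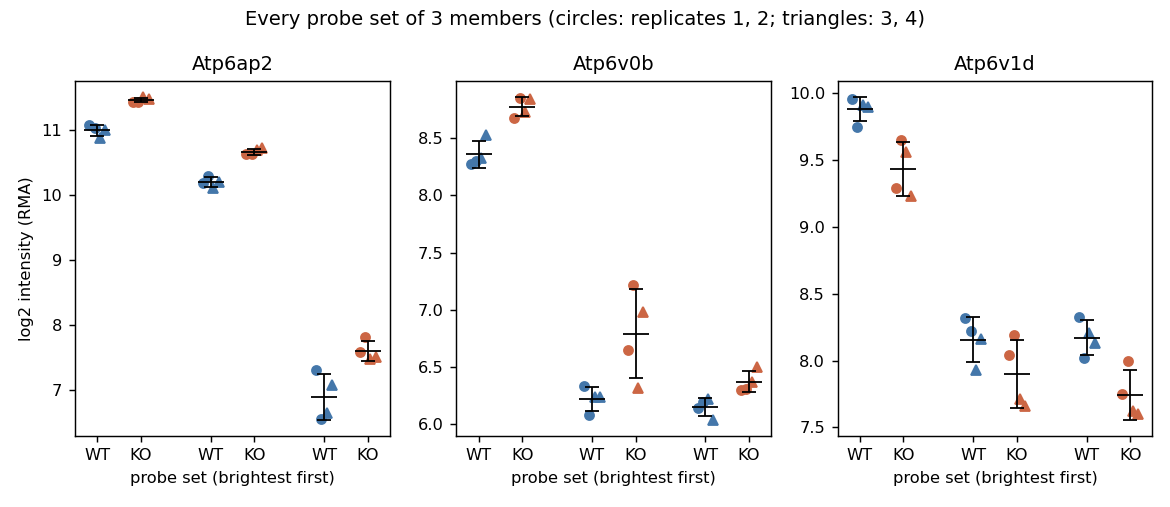
Log2 intensity (RMA) of every single-gene probe set of Atp6ap2, Atp6v0b and Atp6v1d, from the brightest at the left, with WT and RaptorKO (KO) as pairs, circles for replicates 1 and 2, triangles for replicates 3 and 4, and bars for the mean and SD of 4 arrays. The RaptorKO mean is higher in all 3 sets of Atp6ap2 and of Atp6v0b and lower in all 3 sets of Atp6v1d.

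In V0, Atp6v0b encodes a proteolipid of the rotating ring that carries the protons. Its brightest set read 8.27, 8.30, 8.33 and 8.53 in WT and 8.68, 8.85, 8.73 and 8.84 in RaptorKO, so that all RaptorKO arrays lay above all WT arrays. The difference of 0.41 (SE 0.099, 95% interval 0.20 to 0.63) missed the threshold (limma, adjusted p = 0.0603). The other sets had differences of 0.57 (6.22 ± 0.10 in WT, 6.79 ± 0.39 in RaptorKO, with the groups overlapping by less than 0.01) and 0.22 (6.15 ± 0.08 and 6.37 ± 0.09, without overlap). All 3 Atp6v0b sets have names ending in x_at or s_at. Atp6v0b was called in 4 of 22 alternatives, namely a stricter filter at the 60th percentile (adjusted p = 0.0428), quantile normalization (0.45, adjusted p = 0.0324), centring on the 75th percentile (adjusted p = 0.0436) and an intensity trend (adjusted p = 0.0287), all with limma, in which 2.36% to 3.24% of genes were called. In the other 18 Atp6v0b was not called, among them all 8 fits that left out a single array.

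Atp6v0d1 encodes subunit d, the piece that joins the ring to the central shaft. It read 7.65, 7.43, 7.69 and 7.46 in WT and 7.70, 8.04, 7.44 and 7.68 in RaptorKO. Only RaptorKO 2 stood clearly above the WT arrays, and RaptorKO 3 was among the lowest of all 8. The difference of 0.16 did not pass (SE 0.13, 95% interval -0.13 to 0.44, limma adjusted p = 0.713). Replicates 1 and 2 gave 0.33, and replicates 3 and 4 gave -0.02.

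In V1, Atp6v1d encodes subunit D, the central shaft that transmits rotation to V0, and it was the member with the lowest change. Its brightest set read 9.96, 9.75, 9.91 and 9.90 in WT and 9.29, 9.65, 9.56 and 9.23 in RaptorKO. All RaptorKO arrays lay below all WT arrays, by 0.094 at the nearest, and RaptorKO 1 and 4 were the furthest from WT. The difference of -0.45 (SE 0.12, 95% interval -0.70 to -0.19) missed the threshold (limma, adjusted p = 0.0872). The other sets had differences of -0.43, with groups that did not overlap by a margin of 0.02, and of -0.26, with groups that overlapped. Atp6v1d was called in 3 of 22 alternatives, namely without RaptorKO 2 (-0.52, limma adjusted p = 0.042), with an intensity trend (adjusted p = 0.0231) and with array weights (-0.50, adjusted p = 0.0302), where 2.22%, 3.24% and 2.74% of genes were called. In the other 19 Atp6v1d was not called, among them 7 of the 8 fits that left out a single array.

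Subunits A and B form the head of V1. Atp6v1b2, the B subunit that binds but does not hydrolyse ATP, read 7.55, 7.28, 7.31 and 7.47 in WT and 7.69, 7.81, 7.51 and 7.73 in RaptorKO. Only WT 1 reached into the RaptorKO range, and the difference of 0.28 (SE 0.11, 95% interval 0.048 to 0.52) did not pass (limma, adjusted p = 0.266). Atp6v1a, the catalytic A subunit, ranged from 6.78 to 7.04 across WT arrays and from 6.91 to 7.22 across RaptorKO arrays, a difference of 0.048 (95% interval -0.19 to 0.29, limma adjusted p = 0.922), and its dimmer set differed by -0.12. Atp6v1h, the regulatory H subunit that holds detached V1 inactive, ranged from 6.21 to 6.37 across WT arrays and from 6.00 to 6.50 across RaptorKO arrays (-0.015, 95% interval -0.27 to 0.25, limma adjusted p = 0.979). Its RaptorKO arrays spread on both sides of WT, with an SD of 0.22 against 0.07.

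Among the listed members, all 4 measured V0 and accessory genes had a higher mean in RaptorKO, and the 4 measured V1 genes had no common direction. The median change was 0.28 for the 2 measured V0 genes, 0.28 for the 2 accessory genes and 0.017 for the 4 measured V1 genes, where Atp6v1b2 and Atp6v1d had opposite signs. Each gene was then set to its own WT mean, so that the levels of different probe sets are not compared, and averaged within a part on each array. On this scale the V0 genes spanned -0.093 to 0.052 for WT and 0.12 to 0.49 for RaptorKO. The accessory genes spanned -0.044 to 0.046 for WT and 0.21 to 0.36 for RaptorKO. Neither overlapped, while the V1 genes spanned -0.077 to 0.067 for WT and -0.16 to 0.14 for RaptorKO, around the same centre. As single genes, Atp6v0b and Atp6ap2 were separate and Atp6v0d1 and Atp6ap1 overlapped, so the separate averages are not a trait of every gene in them. No share over all genes was computed for such averages.

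The V1 minus V0 difference on a single array was -0.13 to 0.065 in WT and -0.39 to -0.21 in RaptorKO, again without overlap. As a difference of median changes it was -0.27, and the 2 replicate sets gave -0.42 (replicates 1 and 2) and -0.12 (replicates 3 and 4). It is given as a description with no test, since it rests on 2 and 4 genes. It holds for the listed members: among further subunits of the pump the order was the opposite, with a median change of -0.019 for 6 V0 genes and 0.10 for 3 V1 genes. The median over all 8 members was 0.042 without RaptorKO 2, 0.20 without RaptorKO 3, 0.067 with array weights, and 0.31 in replicates 1 and 2 against 0.048 in the other two.

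**Figure D3:**
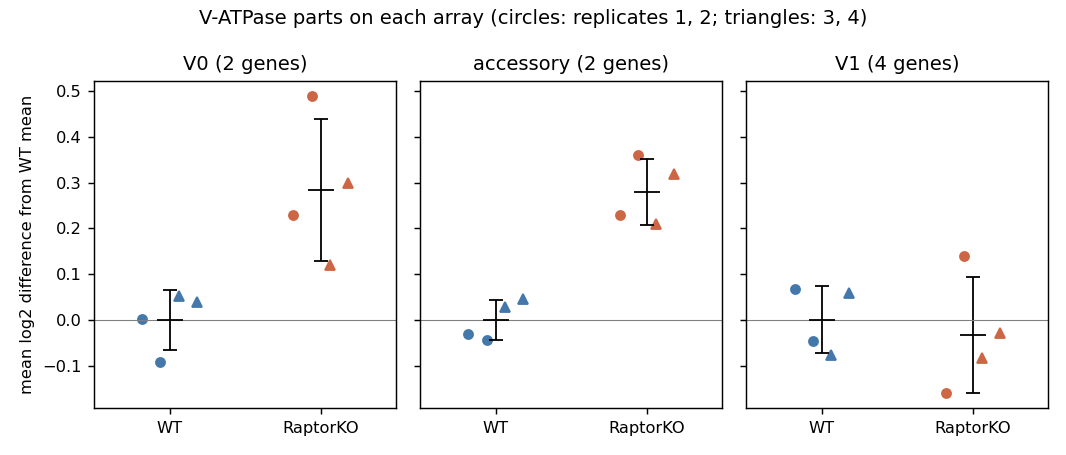
Mean log2 difference from the WT mean on each array for the V0 genes (Atp6v0b, Atp6v0d1), the accessory genes (Atp6ap1, Atp6ap2) and the V1 genes (Atp6v1a, Atp6v1b2, Atp6v1d, Atp6v1h), with circles for replicates 1 and 2, triangles for replicates 3 and 4, and bars for the mean and SD of 4 arrays. RaptorKO lies at 0.12 to 0.49 for V0 and 0.21 to 0.36 for the accessory genes, above WT, and at -0.16 to 0.14 for V1, across the WT range.

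Replicate number separated the arrays by sex-linked transcripts, so the members were also compared across that division. No difference in genotype effect between replicates 1 and 2 and replicates 3 and 4 was detected for the 8 members (limma interaction, lowest adjusted p = 0.481, for Atp6ap1), and none reached an unadjusted p under 0.05. With 2 arrays of a genotype in each set, a difference could be missed. Over all 11413 genes 0 were called in that interaction, and 11.4% had an unadjusted p under 0.05. Atp6ap2 was higher in RaptorKO in both sets, by 0.38 in replicates 1 and 2 and by 0.56 in replicates 3 and 4. With only 2 arrays a group it was called in neither (limma, adjusted p = 0.399 and 0.101), where 0.0789% and 0.745% of all genes were called. Atp6v0b (0.48 and 0.35), Atp6v1b2 (0.34 and 0.23) and Atp6v1d (-0.38 and -0.51) also had the same sign in both sets.

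A list of 16 further subunit genes showed no called gene among the 9 that were tested, against 1.96% of all genes (limma). With so low a share, no call is the usual outcome for a list of this size. Among the 9, 2 V0 genes and 0 V1 genes had an unadjusted p under 0.05 (limma), against 13.0% of all genes. Of 8 other V0 genes 6 were tested, 3 with a positive and 3 with a negative change (median -0.019). Atp6v0a2, an isoform of the large membrane subunit a, read 7.39 ± 0.21 in WT and 7.01 ± 0.19 in RaptorKO (SD, n = 4 each), a difference of -0.37 (SE 0.13, limma adjusted p = 0.22). Atp6v0d2, the d isoform known from osteoclasts and macrophages, differed by -0.29 close to the filter, with 5 of 8 arrays above it (limma, adjusted p = 0.38). Of 8 other V1 genes 3 were tested and all had a positive change (median 0.10), with 0.19 for Atp6v1f (limma, adjusted p = 0.624) and 0.10 for Atp6v1e1, a stalk subunit (adjusted p = 0.798). Atp6v0a4, Atp6v0e2, Atp6v1b1, Atp6v1c2 and Atp6v1g2 did not reach the 40th percentile on any array. Atp6v0a4 and Atp6v1b1 are best known from kidney and inner ear.

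**Figure D4:**
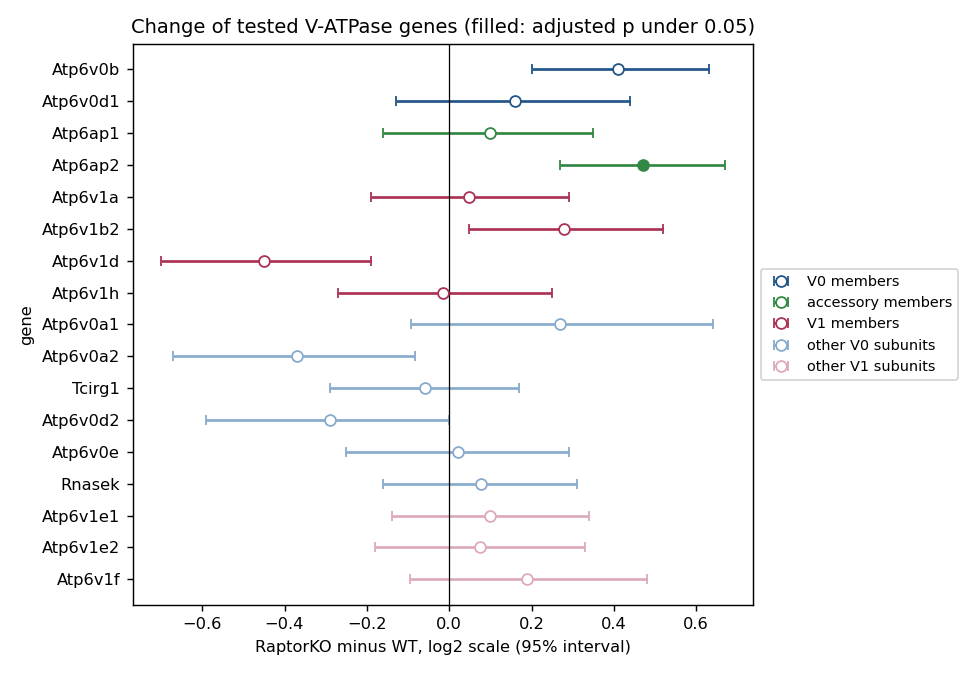
Difference between genotypes (RaptorKO minus WT, log2) and its 95% interval from limma for the 17 tested V-ATPase genes, coloured by part, with filled points for an adjusted p under 0.05. Atp6ap2 at 0.47 is the filled point, and the intervals of Atp6v0b, Atp6v1b2, Atp6v1d, Atp6v0a2 and Atp6v0d2 also leave out 0 before adjustment.

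Assembly factors and regulators of the pump had 0 called of 8 tested genes, against 1.96% of all genes (limma), with a median of 0.018. At an unadjusted p under 0.05 there were 2 of the 8 (limma), against 13.0% of all genes. Ncoa7 and Oxr1, which share a domain that binds the V-ATPase, had opposite signs. Ncoa7 spanned 7.88 to 8.02 for WT and 8.16 to 8.45 for RaptorKO (0.34, limma adjusted p = 0.133), and Oxr1 spanned 7.97 to 8.10 for WT and 7.55 to 7.89 for RaptorKO (-0.32, adjusted p = 0.202). Among the lysosomal partners of the pump in mTORC1 sensing and the TFE factors, 1 of 12 tested genes was called, against 1.96% of all genes. Rragd, a Rag GTPase, rose by 1.13 (SE 0.14, limma adjusted p = 0.00233), from 6.80 to 7.01 across the WT arrays to 7.73 to 8.46 across the RaptorKO arrays. It was not called in replicates 1 and 2 alone (1.30, adjusted p = 0.133) or in replicates 3 and 4 alone (0.95, adjusted p = 0.0509), both with limma. The median of these 12 genes was 0.074.

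No marker of another cell type was called, but 2 lists had changes of a single sign. Over all genes 1.96% were called and 13.0% had an unadjusted p under 0.05 (limma). All 9 tested markers of macrophages and monocytes had a positive change (median 0.39, 0 called by limma, 2 at an unadjusted p under 0.05), and the mean level of the list spanned 4.81 to 5.64 for WT and 5.34 to 5.93 for RaptorKO, which overlap. Its mean was 5.30 for WT and 5.63 for RaptorKO, and 5.18 in replicates 1 and 2 against 5.74 in replicates 3 and 4. Itgam and Adgre1, defining markers of that list, did not reach the 40th percentile on any array. All 6 tested markers of conventional CD4 T cells had a negative change (median -0.33, 0 called by limma, 4 at an unadjusted p under 0.05). Their mean level was 8.14 to 8.27 in WT and 7.64 to 7.94 in RaptorKO, without overlap, and was not used as a covariate. No share over all genes was computed for such list levels. Macrophages carry abundant V-ATPase. With the level of their markers as a covariate the change was 0.49 for Atp6ap2 (limma, adjusted p = 0.0555), 0.37 for Atp6v0b (adjusted p = 0.185) and -0.42 for Atp6v1d (adjusted p = 0.212), in a fit that called 1.34% of all genes. Atp6ap2, at 0.47 without the covariate, was not called in that fit. The covariate averaged all named markers of the list, Itgam and Adgre1 included. The part of macrophages or of conventional CD4 T cells in these values was not tested. The markers of B cells (median 0.25), CD8 T and NK cells (-0.092), neutrophils (0.11) and dendritic cells (0.089) had 0 called genes each by limma and levels that overlapped between genotypes, and at an unadjusted p under 0.05 there were 2 CD8 T and NK cell markers and 0 in the other lists.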

How the data were processed

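The deposited values are log2 intensities per probe set, which the authors obtained with RMA (robust multi-array average) according to the labels, that is, per the submitters' processing notes, with no version named. RNA was amplified and biotin-labelled before hybridization, per the labels' protocols. RMA as usually run equalizes the arrays' overall signal, and array medians lay between 5.21 and 5.29. Probe sets were named from the platform annotation, updated to GRCm38.p6 RefSeq symbols through Entrez identifiers: 28898 of 45141 listed a single gene, 551 several and 15692 none, the latter with 104 controls. Where a gene had several probe sets, the brightest on average over 8 arrays stood for it. A gene was tested if 4 or more arrays put it above their own 40th percentile, and 11413 genes met this. RaptorKO minus WT was fitted with limma 3.58.1 in R 4.3.3 (lmFit, eBayes, no covariates), and calls were made at an adjusted p below 0.05 (Benjamini-Hochberg, over all tested genes). Intervals are for single genes before adjustment. The scripts were tested on simulated data. Figures used matplotlib 3.10.9 in Python 3.11.15.

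The members and lists were chosen with earlier results of these data known. Named beside the members were Rptor and, from each list of other subunits, assembly factors and lysosomal partners, up to 4 called genes by smallest p or, with none called, the 2 with the smallest p. The test of replicates 3 and 4 against 1 and 2 (not its use as a covariate), Xist, Eif2s3y and the choice of promoters to show were added after seeing the data. No label ties samples to separate mice; the p-values therefore rest on sample-to-sample spread that can be technical. The number of arrays limits the precision. The array names no genome build, so only promoter windows have coordinates.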

Additional observations from a re-analysis of the deposited data

Results flagged for a closer look

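Atp6v1a on RaptorKO 2 stood apart from its group, at 7.22 against 6.91 to 6.95 on the other RaptorKO arrays. Without RaptorKO 2 the change of Atp6v1a was -0.025. Of 42 groups of 4 values examined this way, this was the only one, and chance gives about 1 in 20.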

How the results depend on the processing

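Of 22 alternatives, Atp6ap2 was called in 12, with changes of 0.38 to 0.56, and was positive in all. The count of members called higher, 1, became 0 with replicates 1 and 2 only, replicates 3 and 4 only and the macrophage covariate, 2 with the 60th percentile filter, quantile normalization, 75th percentile centring and an intensity trend, and ranged from 0 to 1 with single arrays left out. The count called lower, 0, became 1 with an intensity trend and with array weights and ranged from 0 to 1 with single arrays left out. With replicate number as a block (replicate block), 0 members were called higher, and Atp6ap2 kept 0.47 (limma, adjusted p = 0.0909). Deviations from the group means had correlations of 0.157, -0.153, 0.106 and 0.026 between same-numbered samples. Between differently numbered samples they ran from -0.235 (WT 1 and RaptorKO 4) to 0.215 (WT 1 and RaptorKO 2). The numbers were therefore not taken as pairs, though a factor shared by some of the samples was not tested. The block called 175 genes of 11413. Calls over all genes, 224, were 370 with an intensity trend, 9 and 85 within replicates 1 and 2 and within replicates 3 and 4, and 98 to 251 with single arrays left out. Interaction calls, 0, ranged from 0 to 1 with single arrays left out. The median of the members, 0.13, was 0.31 in replicates 1 and 2, 0.048 in replicates 3 and 4, 0.067 with array weights and 0.042 to 0.20 with single arrays left out. The V1 minus V0 difference, -0.27, was -0.44 over every probe set, -0.42 and -0.12 within replicates 1 and 2 and within replicates 3 and 4, and -0.33 to -0.23 with single arrays left out; with the accessory genes in V0 it was -0.27. Signs turned for genes near 0: Atp6v1a with the mean of its probe sets (-0.037), within replicates 3 and 4 Atp6v0d1 (-0.02), Atp6ap1 (-0.094), Atp6v1h (0.064), Atp6v1f (-0.035) and Atp6v1e1 (-0.051), and with single arrays left out Atp6v1a (-0.025 to 0.08) and Atp6v1h (-0.088 to 0.078). The cause was not tested for any of these. Fewer arrays and fewer genes tested are part of the alternatives that leave out arrays or filter more strictly.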
